A study of Mus musculus with 8 samples.

Results

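The genes described here are 10 genes through which cells build ceramide and related sphingolipids from palmitate and break them down again, Sptlc1, Sptlc2, Sptlc3, Cers2, Cers4, Cers5, Cers6, Degs1, Sgms1 and Sgpl1. They were chosen by name from the 19301 genes of the deposited expression table, and all 10 were found. The samples were 8 RNA-seq libraries of primary tendon stem cells (TSCs), which the study isolated from patellar tendons of C57BL/6J mice. 4 libraries came from TSCs kept in low glucose medium (LG, 5.5 mM glucose with DMSO) and 4 from TSCs kept in high fat, high glucose medium (HFHG, higher glucose with palmitic acid), each for 4 days. The 2 media differed in glucose and in palmitic acid together, so the effects of these agents cannot be told apart. The 4 libraries of a group are biological replicates in the study's description, but whether they came from separate mice was not given, and the p-values below measure the spread between these libraries.

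Palmitate is the usual starting point of sphingolipids. Serine palmitoyltransferase (SPT), in the endoplasmic reticulum, joins palmitoyl-CoA to serine, and after a reduction step the ceramide synthases (CERS) attach a second fatty acid, each with its own preference for chain length. The desaturase DEGS1 then turns dihydroceramide into ceramide. Ceramide is made into sphingomyelin or glycosphingolipids, or is cut by ceramidases to sphingosine, whose phosphate (sphingosine-1-phosphate, S1P) signals through receptors on the cell surface and is destroyed for good by the lyase SGPL1. Ceramide made from excess palmitate is a known mediator of the harm that saturated fat does to cells.

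In HFHG, the message of most of this route was lower. Of the 10 genes, 9 passed a filter on low values (0.5 FPKM or more in 4 or more of the libraries), and 7 of these fell and 2 rose at an adjusted p below 0.05. FPKM counts the fragments on a gene relative to its length and to the size of the library. The genes that fell were both main SPT subunits (Sptlc1 and Sptlc2), the ceramide synthases Cers2, Cers5 and Cers6, the desaturase Degs1 and the lyase Sgpl1, by 17.7% for Sptlc2 to 48.5% for Sgpl1. The genes that rose were the ceramide synthase Cers4 and the sphingomyelin synthase Sgms1. Among all 11710 tested genes, 30.8% fell and 34.0% rose at the same threshold, and among the 5036 tested genes at or above the level of Cers6 (the lowest of the genes that fell) 42.1% fell. In all 9 tested genes the values of the groups did not overlap, which was so for 59.2% of all tested genes. The median log2 fold change (HFHG minus LG) of the 9 genes was -0.39, and that of all tested genes was 0.017. The differences were moderate, and 0 of the 9 genes went beyond a log2 fold change of 1 in either direction. Of all tested genes, 1.65% lay beyond it on the lower side and 3.68% on the higher side with an unadjusted limma p below 0.05.

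**Figure D1:**
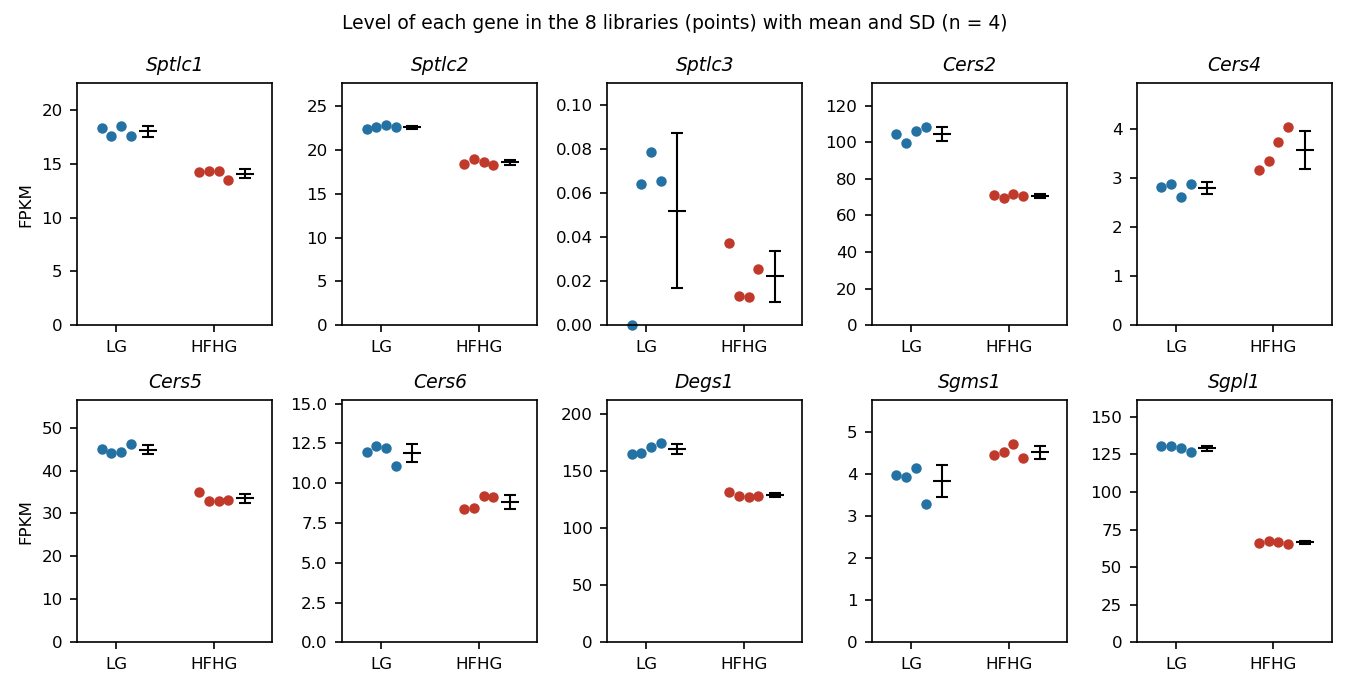
FPKM of the 10 genes (vertical axes from 0) in each LG (blue) and HFHG (red) library, with the mean and SD of 4 libraries in black. The points of the groups are apart in all genes except Sptlc3, whose values stay below 0.1 FPKM. Cers4 and Sgms1 are higher in HFHG and the other 7 tested genes are lower.

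The libraries were deep and close to each other. The totals recovered from the FPKM were 35385644 to 37362725 reads in HFHG and 34308108 to 36308533 in LG, and 387 to 20217 reads in a library stood behind each value of the 9 tested genes. The first principal component separated the media (81.0% of the variance), and LG replicate 4 stood apart from the other LG libraries on the second (4.18%). Without this library all 9 tested genes kept their direction and their call. The stem cell markers and most tendon markers were well expressed, while Scx (2.27 ± 0.558 FPKM in HFHG and 1.45 ± 0.336 in LG) and Tnmd (1.10 ± 0.0908 and 0.614 ± 0.298, SD, n = 4), which define the tendon lineage, were low. Of the 10 tendon markers 7 rose, Scx and Tnmd among them, and 2 fell, Mkx (log2 fold change -0.35) and Egr1 (-0.40), with a sum of 2104 to 2150.3 FPKM in HFHG and 1304 to 1344 in LG. This differs from the study's qPCR in these media, at a culture time not given. There Scx and Tnmd were lower in HFHG and Mkx did not change significantly, and TNMD protein was reported lower too. Of the 7 stem cell markers 5 rose and 2 fell, with a sum of 1455 to 1490.2 FPKM and 1173 to 1183. Macrophage markers were present too. Of 9 tested macrophage markers, 8 fell and 0 rose, and the macrophage marker sum was 1727 to 1776 FPKM in HFHG and 1897 to 1978 in LG, or 110 to 114 and 162 to 169 without Lyz2. Cd163 was near 0 in both groups, and markers of endothelium, muscle, keratinocytes, mural cells and, apart from Fabp4, adipocytes were low. The summed adipocyte markers, nearly all of it Fabp4, were 66.4 to 72.9 FPKM in HFHG and 23.4 to 29.3 in LG. In such bulk samples, fewer cells of a type and less RNA per cell cannot be told apart. These macrophage values moved in the same direction as the 7 genes that fell, and their part in those results was not tested.

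**Figure D2:**
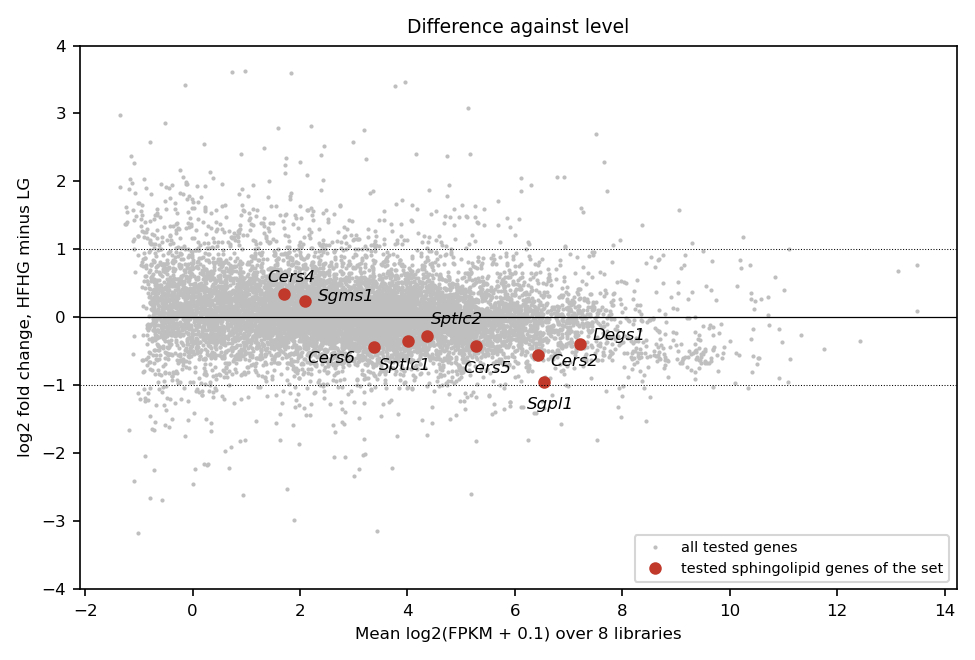
log2 fold change (HFHG minus LG) against the mean log2(FPKM + 0.1) over the 8 libraries, for all 11710 tested genes (grey) and the 9 tested sphingolipid genes (red), with dotted lines at a log2 fold change of 1 and -1. Sgpl1 at -0.96 is the lowest of the red points, Cers4 at 0.34 is the highest, and none lies beyond the dotted lines. The vertical axis is limited to 4 in either direction, which leaves out 3 genes.

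The sequence before the RefSeq transcript starts of the 10 genes was looked at for short motifs. All 10 genes matched RefSeq (GRCm38.p6), with 14 annotated starts in all, of which some lie inside the gene as GENCODE draws it. In the 250 bases before these starts, the E-box CACGTG, which is bound by factors of the basic helix-loop-helix leucine zipper class such as MYC, USF and TFEB, stood in 3 windows, those of Cers2, Cers6 and Degs1. It is its own reverse complement, so 1 search covers both strands, and it was found in 6.02% of 32851 such windows in the genome. It lay 129 bases before the start in Cers2, 22 in Cers6 and 43 in Degs1. All 3 genes fell in HFHG, and 4 other genes that fell had no such motif in the window. The GC box GGGCGG, searched on both strands, stood in 8 of the 14 windows, from 7 genes, against 32.7% of all windows. The shares of all windows given here were not matched for GC content or expression, so a difference from them was not tested. Cers2 and Sgms1 have more than 1 window each. The CCAAT box stood in 5 windows (33.8% of all), the AP-1 motif TGANTCA in 1, that of Sgms1 (6.75%), and the cyclic AMP response element TGACGTCA in 0 (1.55%), each on both strands. The following lines show the E-box windows, and that of Sgpl1, the gene with the largest difference, each cut so that no GENCODE exon of the gene itself is included. The stretches of Cers6 and Sgpl1 lie before the gene, while those of Cers2 and Degs1 lie within the GENCODE coordinates of the gene given below, in an intron of transcripts that start farther upstream. They are written 5′ to 3′ on the strand of the gene, with the E-box in capitals in Cers2 (chr3:95314940-95315083, plus strand), Cers6 (chr2:68861191-68861440, plus strand) and Degs1 (chr1:182282225-182282445, minus strand), and with 2 GC boxes in capitals in Sgpl1 (chr10:61147704-61147934, minus strand), which had 3 in the whole window. A match of letters is a description and not a bound site.
Cers2: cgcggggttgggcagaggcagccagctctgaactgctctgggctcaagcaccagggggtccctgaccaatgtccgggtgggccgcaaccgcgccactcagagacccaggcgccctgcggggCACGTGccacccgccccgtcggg
Cers6: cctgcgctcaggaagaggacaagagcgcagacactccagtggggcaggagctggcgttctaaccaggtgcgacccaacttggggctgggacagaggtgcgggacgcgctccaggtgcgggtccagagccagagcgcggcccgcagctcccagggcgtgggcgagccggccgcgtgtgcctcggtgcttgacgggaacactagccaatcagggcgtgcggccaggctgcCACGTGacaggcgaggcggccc
Degs1: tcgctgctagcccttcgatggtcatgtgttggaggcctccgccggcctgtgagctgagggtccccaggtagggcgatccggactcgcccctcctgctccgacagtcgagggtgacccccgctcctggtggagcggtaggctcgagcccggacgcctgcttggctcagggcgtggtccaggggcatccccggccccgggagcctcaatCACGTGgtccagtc
Sgpl1: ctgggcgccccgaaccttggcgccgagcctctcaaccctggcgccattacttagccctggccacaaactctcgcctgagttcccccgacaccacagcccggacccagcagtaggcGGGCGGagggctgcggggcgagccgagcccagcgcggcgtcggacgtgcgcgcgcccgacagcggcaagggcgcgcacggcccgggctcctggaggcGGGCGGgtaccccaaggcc

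SPT, the enzyme that commits palmitate to sphingolipids, is built from SPTLC1 and a catalytic subunit, SPTLC2 or SPTLC3. Sptlc1 (chr13:53332748-53377397, minus strand, GRCm38) had 14.2, 14.3, 14.4 and 13.5 FPKM in HFHG replicates 1 to 4 and 18.4, 17.6, 18.5 and 17.6 FPKM in LG replicates 1 to 4. Every HFHG library was below every LG library, and the log2 fold change was -0.35 (SE 0.038, limma adjusted p = 3.54e-06). Sptlc2 (chr12:87305058-87388355, minus strand) had 18.5, 19.0, 18.6 and 18.4 FPKM in HFHG and 22.4, 22.6, 22.8 and 22.7 in LG. Its groups were apart as well, with the smallest decrease among the genes that fell (-0.28, SE 0.031, limma adjusted p = 4.64e-06). The ratio of the 2 subunits differed slightly between the groups. The ratio of Sptlc2 to Sptlc1 FPKM was 1.32 ± 0.0301 in HFHG and 1.26 ± 0.0349 in LG (SD, n = 4), a log2 difference of 0.07 (exact permutation test, two-sided, p = 0.0286, adjusted p = 0.0381). This p is the smallest that 4 against 4 libraries allow, and the adjustment covers the 8 ratios tested. Some of those had a p fixed by the single genes, as given below, which lowers this adjusted p. The gap between the groups was narrow, with a lowest ratio of 1.295 in HFHG and a highest of 1.288 in LG.

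Sptlc3 (chr2:139493913-139637674, plus strand), the subunit whose enzyme also uses shorter acyl chains, was hardly detected. It had 3, 1, 1 and 2 reads in the HFHG libraries, or 0.0373, 0.0131, 0.0129 and 0.0254 FPKM, and 0, 5, 6 and 5 reads in the LG libraries, or 0, 0.0640, 0.0786 and 0.0652 FPKM. The groups overlapped through the LG library without a read, in which 3 reads, the limit that a count of 0 allows, would be 0.0406 FPKM. Summed over libraries, 7 reads in HFHG against 16 in LG give a rate ratio of 0.427 with a 95% interval of 0.148 to 1.10 (exact binomial, counting error only), and the exact permutation test gave p = 0.20 (two-sided). A difference in Sptlc3 was therefore not detected at this depth, and its FPKM was far below that of Sptlc2 in every library.

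Cers2 (chr3:95314791-95323599, plus strand), the synthase for very long acyl chains, was the most abundant ceramide synthase. It had 71.3, 69.4, 71.8 and 70.5 FPKM in HFHG and 104, 99.4, 106 and 108 FPKM in LG. No HFHG library came near the LG range, and Cers2 was 32.3% lower (log2 fold change -0.56, SE 0.029, limma adjusted p = 4.01e-09). Its exons overlap those of Setdb1 by up to 75 bases and of 6330562C20Rik by up to 100 bases, both on the other strand, and the strand setting of the counting was not given, so that reads of these genes there could not be told apart. Setdb1 had 6.02 FPKM in HFHG and 6.40 in LG, far below Cers2, and 6330562C20Rik was not analysed here.

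Cers5 and Cers6 both make ceramide with palmitate as the attached acid. Cers5 (chr15:99734881-99772885, minus strand) had 35.0, 32.9, 33.0 and 33.1 FPKM in HFHG and 45.0, 44.0, 44.3 and 46.3 FPKM in LG. HFHG replicate 1 lay above the other 3 HFHG libraries but far below LG, and the log2 fold change was -0.42 (SE 0.031, limma adjusted p = 1.16e-07). Cers6 (chr2:68861441-69114282, plus strand) had 8.38, 8.46, 9.20 and 9.14 FPKM in HFHG and 11.9, 12.3, 12.2 and 11.1 FPKM in LG. LG replicate 4 was the lowest of its group, the groups stayed apart, and the log2 fold change was -0.43 (SE 0.051, limma adjusted p = 8.43e-06). The difference in the log2 ratio of Cers6 to Cers5 was -0.01 (SE 0.072; exact permutation test, two-sided, p = 0.771, adjusted p = 0.771), its sign turned in 3 of the 8 fits that left out 1 library (without HFHG replicate 1, LG replicate 2 or LG replicate 3), and no difference between these synthases was seen beyond the spread.

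Cers4 (chr8:4493026-4531680, plus strand), a synthase for long and very long acyl chains that is typical of skin and fat, went the other way. It had 3.16, 3.35, 3.72 and 4.04 FPKM in HFHG and 2.81, 2.87, 2.62 and 2.88 FPKM in LG. The HFHG libraries spread more than those of any other tested gene of the set (coefficient of variation 11.0%) but all lay above LG, and the log2 fold change was 0.34 (SE 0.082, limma adjusted p = 0.00311). The exons of Cers4 overlap those of Vmn2r-ps89 by up to 886 bases and of Gm36956 by up to 214 bases on the other strand, so that the same limit holds for Cers4, and these 2 genes were not analysed here. Cers4 was the only ceramide synthase called higher among the 4 that were tested, and its level was a small part of the family. The log2 ratio of Cers4 to Cers2 was 0.91 higher in HFHG, and that of Cers6 to Cers4 fell by 0.78. Both gave p = 0.0286 and an adjusted p = 0.0381 in the exact permutation test. These p-values were fixed by the single genes, whose groups lay apart in opposite directions, so they add no evidence. Of the other ceramide synthases, Cers3 was only at trace level and Cers1 was not analysed here.

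The summed FPKM of the ceramide synthases was 117 ± 1.74 in HFHG and 164 ± 4.13 in LG (SD, n = 4). Cers2 held 60.6 ± 0.298% of that sum in HFHG and 63.7 ± 0.756% in LG, Cers5 held 28.7 ± 0.737% and 27.3 ± 0.388%, and Cers4 held 3.06 ± 0.330% and 1.70 ± 0.0923%. These ranges did not overlap, whereas those of Cers6 did (7.54 ± 0.344% and 7.26 ± 0.501%). The order by level, Cers2, Cers5, Cers6 and Cers4, was the same in the mean of both groups. The place of Cers6 in it and the size of the Cers4 share depend on the gene length behind the FPKM. The length recovered from the deposited values was 20207 bases for Cers6, while its longest GENCODE M21 transcript has 7038 bases. With the longest GENCODE transcript as the length of each gene, an alternative chosen after the data were seen, Cers6 held 19.2 ± 0.765% and 18.3 ± 1.14% and Cers5 held 18.5 ± 0.589% and 17.4 ± 0.297%, so that the order of this pair turned, while Cers2 stayed first with 61.0 ± 0.379% and 63.5 ± 1.11%. Cers4 then held 1.20 ± 0.123% and 0.661 ± 0.0359%, and its ranges still did not overlap. The ratio of a gene's FPKM between libraries does not depend on this length. The fold changes given here depend on it only through the 0.1 FPKM added before the log.

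**Figure D3:**
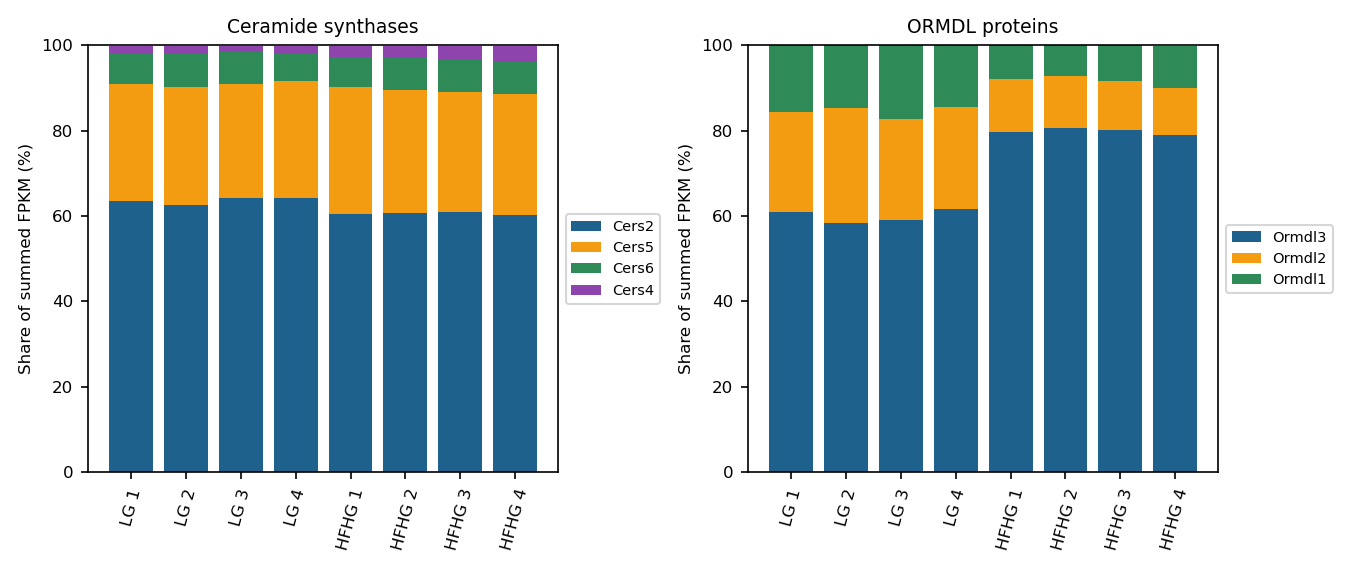
Share of each gene in the summed FPKM (%, vertical axis from 0 to 100) of the ceramide synthases (left) and the ORMDL genes (right) in each of the 8 libraries. The trace of Cers3 is not drawn. The part of Cers2 is 62.6 to 64.3% in LG and 60.3 to 61.0% in HFHG, and the part of Ormdl3 grows from 60.0% in LG to 79.9% in HFHG in the mean.

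Degs1 (chr1:182275772-182282804, minus strand), which makes the double bond of ceramide in the last step of the route, was the most abundant of the 10 genes in HFHG and in LG. It had 132, 128, 128 and 128 FPKM in HFHG and 165, 166, 171 and 175 FPKM in LG. HFHG replicate 1 was the highest of its group, but all HFHG libraries lay below LG (log2 fold change -0.39, SE 0.024, limma adjusted p = 2.08e-08).

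Sgms1 (chr19:32122727-32389714, minus strand) encodes a Golgi enzyme that turns ceramide into sphingomyelin. Sgms1 had 4.46, 4.52, 4.73 and 4.38 FPKM in HFHG and 3.98, 3.95, 4.15 and 3.30 FPKM in LG. LG replicate 4 was clearly the lowest, and the groups were apart by a narrow gap. The log2 fold change of Sgms1, 0.23 (SE 0.074, limma adjusted p = 0.0149), was no longer called after quantile normalization (0.15, limma adjusted p = 0.0724). Without LG replicate 4 it was 0.16 (limma adjusted p = 0.0279). The log2 ratio of Sgms1 to Degs1 was 0.63 higher in HFHG (exact permutation p = 0.0286, adjusted p = 0.0381). The groups of these genes lay apart in opposite directions, which fixed this p, so it adds no evidence for Sgms1.

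Sgpl1 (chr10:61098642-61147703, minus strand) encodes the lyase that cleaves S1P, the only exit from the sphingolipid pathway. It had 66.1, 67.6, 66.7 and 65.6 FPKM in HFHG and 130.3, 130.5, 129 and 127 FPKM in LG. The libraries of a group lay close together (coefficient of variation 1.31% and 1.28%), and the level in LG was 1.94 times that in HFHG (log2 fold change -0.96, SE 0.023, 95% interval -1.01 to -0.91, limma adjusted p = 3.34e-12). Of the 11710 tested genes, 215 had a lower log2 fold change. The ratio of Sgpl1 to Degs1 FPKM, the lyase against the last enzyme of synthesis, was 0.516 ± 0.0109 in HFHG and 0.764 ± 0.0286 in LG (exact permutation p = 0.0286, adjusted p = 0.0381, SD, n = 4). The ranges of the single genes already kept these ratios apart, which fixed this p, so it adds no evidence.

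Genes around the set were counted in 6 lists written from knowledge of the pathway, with 68 genes of which 48 were tested. Of these, 15 rose, 22 fell and 11 were not called, so that 31.3% of the tested ones rose and 45.8% fell. Among all 11710 tested genes 34.0% rose and 30.8% fell. Among those at or above the level of Cers6, 32.9% rose and 42.1% fell. The counts of the single lists below stand beside the same shares. In the list for the rest of the de novo route, 1 of 5 tested genes rose and 4 fell. Of these 5, 3 encode the ORMDL proteins, which are not steps of synthesis but bind SPT and hold it back when ceramide is plentiful. Ormdl2 fell from 21.3 ± 1.38 FPKM in LG to 10.8 ± 0.881 in HFHG (log2 fold change -0.97, limma adjusted p = 2.09e-08), and Ormdl1 fell from 13.5 ± 1.04 to 7.67 ± 1.08 (-0.81, limma adjusted p = 3.89e-06). Ormdl3, the most abundant of them, rose from 52.4 ± 2.18 to 73.6 ± 2.35 (0.49, limma adjusted p = 7.05e-08). The sum of the 3 genes was 89.7 to 96.7 FPKM in HFHG and 85.3 to 90.0 in LG, ranges that overlapped, while the part of Ormdl3 was 79.9 ± 0.716% and 60.0 ± 1.46%. Kdsr, the reductase between SPT and the ceramide synthases, fell (-0.27, limma adjusted p = 0.000788). Sptssa, the remaining tested gene of this list, fell by little (-0.15, limma adjusted p = 0.00744), and its groups overlapped.

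Of 11 tested genes that use or carry ceramide, 4 rose and 5 fell. Cert1, the protein that carries ceramide to the Golgi for sphingomyelin, fell from 8.40 ± 0.504 FPKM in LG to 4.69 ± 0.107 in HFHG (log2 fold change -0.83, limma adjusted p = 3.95e-08). Ugcg, which adds glucose to ceramide as the first step to glycosphingolipids, fell from 136 ± 1.67 to 94.4 ± 2.71 (-0.53, limma adjusted p = 2.13e-09). The next step, the transfer of galactose to make lactosylceramide, is shared by a pair of enzymes that went in opposite directions. B4galt5 fell from 51.4 ± 1.33 to 22.8 ± 0.429 FPKM (-1.17, limma adjusted p = 6.12e-12) and B4galt6 rose from 4.85 ± 0.406 to 6.73 ± 0.177 (0.47, limma adjusted p = 3.65e-05). St3gal5, which makes the ganglioside GM3, rose from 6.80 ± 0.364 to 14.4 ± 0.517 FPKM (1.07, limma adjusted p = 1.33e-09), and Gltp, a glycolipid transfer protein, rose as well (0.49).

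Of 15 tested genes that break down sphingomyelin and glycosphingolipids, mostly in the lysosome, 4 rose and 8 fell. Gla, the lysosomal galactosidase, fell from 77.7 ± 1.63 FPKM in LG to 28.8 ± 0.602 in HFHG (log2 fold change -1.43, limma adjusted p = 5.34e-13). The sialidase Neu1 (-0.64) and the hexosaminidase Hexa (-0.63) fell as well. The membrane sialidase Neu3 (0.84), the GM2 activator Gm2a (0.40) and the neutral sphingomyelinase Smpd2 (0.30) rose. Lysosomal enzymes are also abundant in macrophages, whose markers fell as given above, and the part of this in these values was not tested.

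The ceramidases and the genes that make S1P or act on it were mixed, with 4 of 10 tested genes higher and 3 lower. Asah1, the acid ceramidase of the lysosome, fell from 181 ± 2.71 FPKM in LG to 89.5 ± 1.04 in HFHG (log2 fold change -1.01, limma adjusted p = 1.5e-12), whereas Asah2, the neutral ceramidase, rose from 7.58 ± 0.225 to 12.4 ± 0.793 (0.70, limma adjusted p = 1.13e-07). The kinase Sphk1, which makes S1P, fell (-0.66). Among the lipid phosphatases, Plpp2 fell (-0.81) and Plpp1 rose (0.56). Plpp3, the most abundant of them (68.6 FPKM in HFHG and 62.0 in LG), rose slightly (0.15), as did the S1P phosphatase Sgpp1 (0.16).

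Among the S1P transporters and receptors 3 genes were tested. S1pr3 was at 11.2, 11.7, 12.4 and 12.2 FPKM in HFHG and at 2.45, 1.92, 2.37 and 2.06 FPKM in LG. All HFHG libraries were far above LG, and the log2 fold change of 2.38 (SE 0.078, limma adjusted p = 4.69e-11) was the largest in the 10 genes and the 6 lists. S1pr1 fell by little (-0.34, limma adjusted p = 0.00370) and S1pr2, the third tested gene, was not called (-0.11, limma adjusted p = 0.0841). Of 4 tested elongases, which lengthen fatty acyl chains, Elovl5 rose (0.14, limma adjusted p = 0.00258) and Elovl1 was at -0.11 (limma adjusted p = 0.0325), a call that was lost under 6 alternatives.

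**Figure D4:**
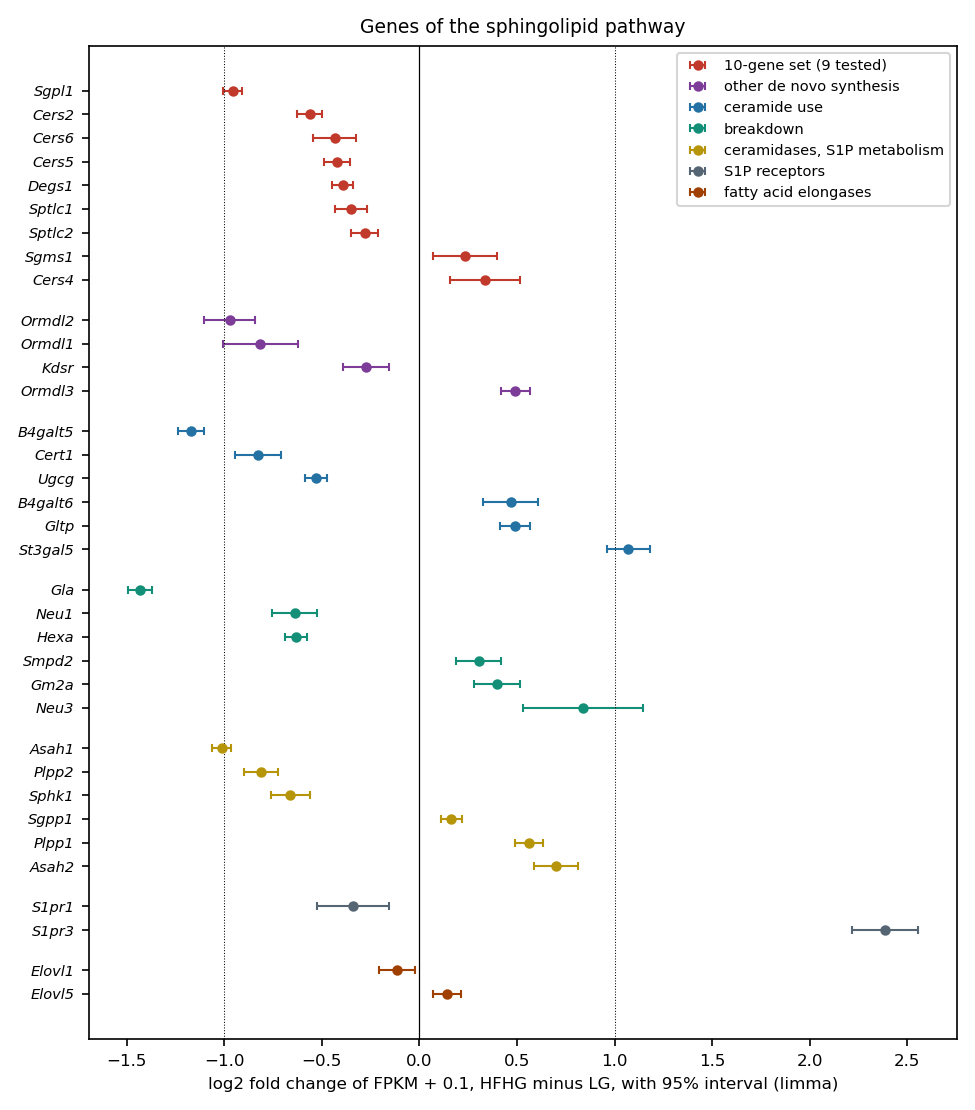
log2 fold change of FPKM + 0.1 (HFHG minus LG, horizontal axis) with its 95% interval from limma, for the 9 tested genes of the set and for the genes named from the 6 lists, coloured by list. S1pr3 at 2.38 lies farthest to the right and Gla at -1.43 farthest to the left, and each list holds genes on both sides of 0.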

How the data were processed

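mRNA of 4 HFHG (25.5 mM glucose, 300 µM palmitic acid) and 4 LG (5.5 mM glucose) cultures was sequenced with a stranded kit. The authors deposited FPKM for 19301 genes. The submitters' processing notes name HISAT2 2.1.0 and mm10; the counting program, its strand setting and the annotation are not given in the sources used here. The replicates were not pooled, and 0 columns of per-sample values were left unused.

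Whole reads were recovered from the FPKM steps for 19301 of 19301 genes (100%, within 0.001 read) and served for depth, for Sptlc3 and for an alternative. Genes with at least 0.5 FPKM in at least 4 libraries (11710) were tested with limma 3.58.1 (R 4.3.3) on log2(FPKM + 0.1), two-sided, with an intensity trend and Benjamini-Hochberg adjustment over all tested genes. Fold changes are on this scale, which understates those of low genes. Ratios of 2 genes were compared by the exact permutation test over 70 arrangements. The fit and the recovery were tested on simulated data. Positions come from GENCODE M21 (GRCm38, the same assembly as mm10), and the promoter sequences from RefSeq (GRCm38.p6).

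Groups and replicate numbers came from the labels, and the doses from the study's methods. All 10 members were named, and of each related list the 3 genes with the largest rise and fall at an adjusted p below 0.05 and those beyond a log2 fold change of 1. Setdb1 was named after its overlap was seen, and Sgms2, Sptssa and Plpp3 were named beside their relatives, outside this rule. The search for outlying samples, the related genes followed under the alternatives and the pathway figure hold only related genes named by the rule. The members and lists were chosen with earlier results of these data known, so no test over a list was made. Cell type markers were lists of known genes. The alternatives were other pseudocounts (1 and 0.01), filters (none, or 1 FPKM), scalings, a replicate block, robust eBayes, voom on recovered reads, each library left out in turn and another gene length.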

Additional observations from a re-analysis of the deposited data

Results flagged for a closer look

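A sample far from the other 3 of its group was looked for in 80 groups of 4 libraries, among the 10 genes, the genes named from the lists and the shares of the ceramide synthases. Chance flags about 1 in 20 such groups, and 6 were found. HFHG replicate 1 was the high value in Cers5 (35.0 FPKM, the others 32.9 to 33.1) and in Degs1 (132 FPKM, the others near 128), and both stayed below every LG library. HFHG replicate 3 was low in Kdsr (6.35 FPKM, the others 7.18 to 7.22). LG replicate 4 was low in Asah2 (7.24 FPKM, the others 7.67 to 7.71) and high in Neu1 (19.0 FPKM, the others 17.1 to 17.2), and HFHG replicate 4 was high in Neu1 (12.4 FPKM, the others 10.8 to 11.0). In each of these genes the groups did not overlap.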

How the results depend on the processing

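The fold changes of the 9 tested genes were computed under 18 alternatives each, and with those of Sptlc3 164 of 165 values kept their direction and their side of the threshold. The exception was Sgms1 under quantile normalization (0.15, adjusted p = 0.0724), which left 1 gene of the set higher in place of 2; the cause was not tested. Over all alternatives Cers4 ranged from 0.23 to 0.39 and Sgpl1 from -0.97 to -0.90. For the named related genes 462 values kept their call, and 6 did not, all of Elovl1 (the replicate block, the same sum per library, and without HFHG replicate 2 or 4 or LG replicate 2 or 4). Among the S1P transporters and receptors, 2 genes in place of 1 fell without LG replicate 3, and 2 in place of 1 rose without the filter on low values. No scaling moved the median of all tested genes by 0.1 or more. The log2 difference of Cers6 to Cers5 changed sign when a library was left out, with values from -0.063 to 0.030. With the longest GENCODE transcript as gene length, the difference in share (HFHG minus LG) was 0.535 percentage points for Cers4 and 0.876 for Cers6, in place of 1.35 and 0.277, by construction of the new lengths. Same-numbered libraries did not deviate together (correlations from -0.0736 to -0.00558), so no pairing by number was seen, though a weak one could be missed. The replicate block gave 7342 calls in place of 7592 over all genes and kept the calls of all 9 tested genes (Sgpl1 -0.96). Leaving out a library brings the smallest exact p of a ratio to 0.0571, so those fits give values only. The depth limits only Sptlc3 among the 10 genes. The counting annotation is unknown, and so levels compared between genes rest on lengths that could not be checked.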
